A study of Mus musculus with 6 samples.

Results

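The genes described are 54 enzymes and carriers of amino acid catabolism and of the urea cycle, measured in the livers of control mice and of mice given trichloroethylene (TCE), an industrial solvent. They were taken by gene symbol from the annotation of the array, whatever their values, out of 24239 symbols on it. They fall into 10 groups by the amino acid they break down: 9 genes of the urea cycle, 6 of glutamine, glutamate, aspartate and alanine, 4 of tyrosine, 6 of tryptophan, 4 of histidine, 9 of serine, glycine and threonine, 3 of proline, 3 of cysteine, 1 of lysine, and 9 of the branched-chain amino acids and propionate. All animals were B6C3F1 males aged 7 weeks. The control group held 3 mice that received corn oil alone, and the TCE group held 3 mice given TCE in the same oil by mouth, in a daily dose of 1000 mg per kg of body weight, over 5 days. Each array carried the RNA of a single mouse, which gives n = 3 animals per group with none pooled. The array holds 60-base probes and a single dye was used. Every value below is the log2 of the background-corrected signal after quantile normalization, and every change is the mean of TCE minus the mean of control on that scale, where -1 is a 2-fold lower and 1 a 2-fold higher signal. A log2 signal depends on the probe, so it is compared between mice and not between genes.

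When amino acids are used as fuel, aminotransferases and dehydrogenases remove the nitrogen and the carbon skeletons are passed to glucose or to the citric acid cycle. The freed ammonia is toxic. Periportal hepatocytes, near the incoming blood, turn most of it into urea through a cycle that starts in mitochondria and ends in the cytosol, and the last ring of hepatocytes around the central vein binds what is left into glutamine. The liver is the main site of breakdown for most amino acids, while the branched-chain amino acids are first transaminated mostly in other tissues.

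Between 23538 and 24968 probes per array were well above background, a flag of the scanner software for a signal clearly above the surroundings of the spot. A gene was tested where every array of the control group, or every array of the TCE group, carried that flag for a probe of it, as was the case for 13284 genes, and the brightest such probe was used for the gene. Arrays of the same group correlated at a Pearson's r of 0.978 or more across the tested probes, a comparison over probes and not over replicates. Control mouse 1 was on a slide of its own and the other 5 mice shared the second slide. The tissue label was borne out by hepatocyte markers, whose summed signal lay between 20.56 and 20.64 on the log2 scale in control mice and between 20.49 and 20.64 in TCE mice. Of 51 markers of other cells, 32 could be tested and 1 was past the threshold, against 2.39% of all tested genes. This was the red cell gene Alas2, which was lower in TCE mice, by -0.91 (adjusted p = 0.0215). It lost the threshold without any single mouse except TCE mouse 3 (adjusted p up to 0.112). The summed signal of the 3 red cell markers ranged from 16.23 to 16.76 in control mice and from 14.87 to 16.48 in TCE mice, and its part in the results below was not tested. Short of the threshold, the stellate cell gene Lrat differed by -1.35 (adjusted p = 0.0676) and the smooth muscle gene Cnn1 by -2.36 (adjusted p = 0.114). The neutrophil gene S100a8 differed by 1.19 (adjusted p = 0.0886). These genes were named after their values were seen, and the summed signals of their lists overlapped between the groups. The summed endothelial signal was 13.60 in TCE mouse 1 and between 14.43 and 14.57 in the other mice. The 7 markers of adipocytes and kidney did not reach the filter (0 of 7 tested). Cfd, an adipocyte gene, was above background on 1 array, with 7.77 in TCE mouse 3 against 2.99 to 4.20 in the other mice, and the kidney genes Kap and Slc12a1 were above background on 1 array each. The summed adipocyte signal was 7.89 in TCE mouse 3 and between 4.59 and 5.16 in the other mice, and Adipoq and Plin1 were above background on 0 arrays. Of 5 pancreas markers 1 was tested, Cela1, above background on 2 control and 3 TCE arrays (difference 1.02, adjusted p = 0.452). Pnliprp1 was above background on 0 control and 2 TCE arrays, with 2.63 to 3.68 in control mice and 4.65 to 5.34 in TCE mice. The summed pancreas signal was 5.36 to 7.58 in control mice and 7.18 to 7.42 in TCE mice. Whole liver was measured, so fewer cells of a type and less RNA per cell cannot be told apart.

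Of the 54 genes, 52 were tested, and each of these was well above background on all 6 arrays. The exceptions were Arg2, the mitochondrial arginase of other tissues, which was above background on 1 control array and on 0 TCE arrays, and Tdh, a threonine dehydrogenase, which was above background on 0 arrays. No member changed at an adjusted p of 0.05 or less, at any size, by limma with Benjamini-Hochberg adjustment over all tested probes (0 of 52), where 2.39% of all tested genes did (1.8% higher and 0.587% lower). A 2-fold change as well was reached by 0 of 52, against 1.73% of all tested genes (1.3% higher and 0.429% lower). At an unadjusted p of 0.05 or less there were 12 members (23.1%), against 19.1% of all tested genes. Of these 12, 8 were lower in TCE mice (15.4% of the members, against 7.11% of all tested genes) and 4 were higher (7.69%, against 12% of all tested genes). The unmoderated test named in the methods gave 17 members at an unadjusted p of 0.05 or less, against 19% of all tested genes, and 0 after adjustment, against 0.279%.

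The spread between mice was small for most of these genes. The median SD was 0.12 within the control group and 0.14 within the TCE group, and the 95% interval of the change lay inside 2-fold in both directions for 47 of 52 members (90.4%, against 80.3% of all tested genes). For 28 members (53.8%) it lay inside 1.5-fold, against 46% of all tested genes. The 5 members whose interval reached beyond 2-fold were Hal, Bcat2, Prodh and Csad on the side of lower signal and Got1 on the side of higher signal. The fitted change was below 0.2 in either direction for 28 members and reached 0.5 for 6, which were Hal, Bcat2, Prodh, Otc, Ivd and Dmgdh, and all 6 were lower in TCE mice. By sign, 33 members were lower and 19 higher in TCE mice, so that 63.5% were lower, against 46.9% of all tested genes. The groups did not overlap for 22 members (42.3%), against 27.9% of all tested genes. TCE mice were the lower group in 15 of them (28.8%, against 10.8% of all tested genes) and the higher group in 7 (13.5%, against 17.1%). The median change was -0.06 over the members and 0.02 over all tested genes.

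**Figure D1:**
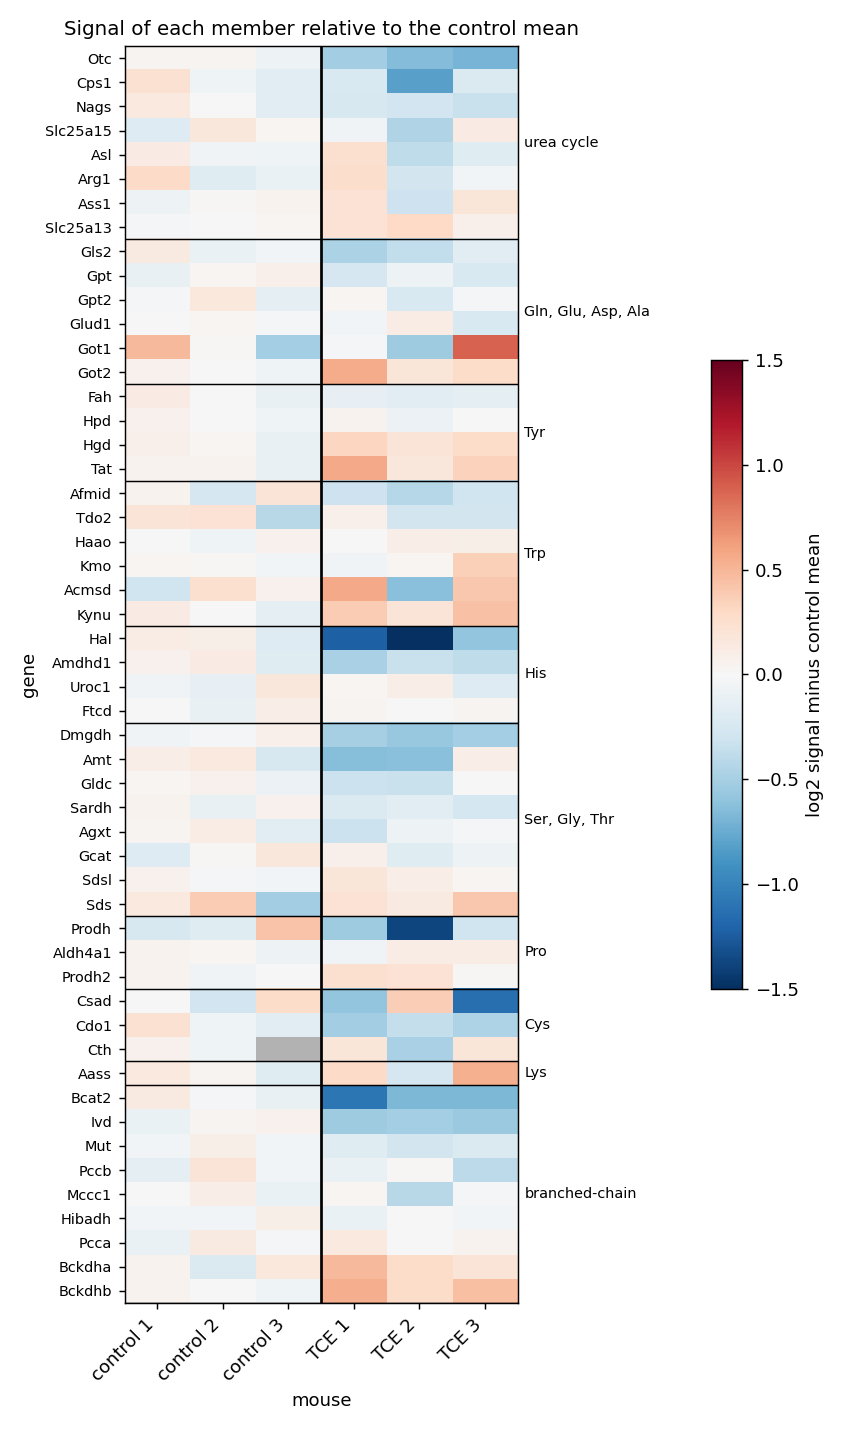
Log2 signal of each of the 52 tested genes in each of the 6 mice, minus the mean of the control mice. Rows are genes, ordered by group and then by change, columns are mice, blue is lower and red higher than the control mean, and grey marks a spot left out as an outlier (Cth in control mouse 3). Otc, Hal, Dmgdh, Bcat2 and Ivd are blue in all 3 TCE mice, while most of the other genes differ little between mice.

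**Figure D2:**
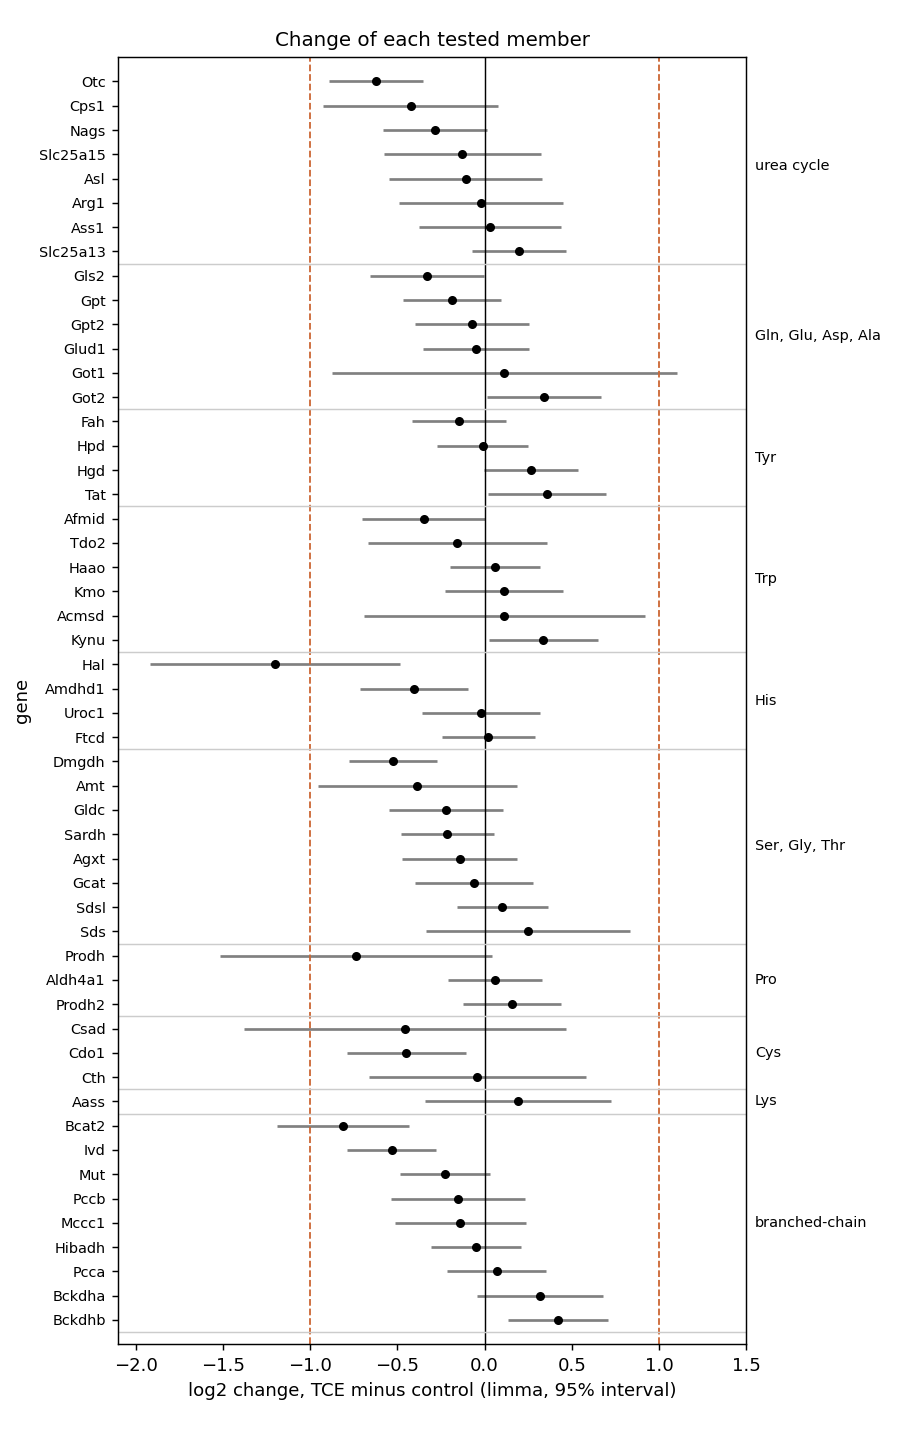
Fitted change of each tested gene, TCE minus control, on the log2 scale (points) with its 95% interval from limma (lines), n = 3 mice per group. The dashed lines mark a 2-fold change, and the intervals of 47 of the 52 genes lie between them.

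The urea cycle was examined first. Its 8 tested members had a median change of -0.12, with 6 lower and 2 higher in TCE mice, and the largest difference was at its second step. Ornithine transcarbamylase (Otc), which joins carbamoyl phosphate to ornithine in mitochondria, had a log2 signal of 14.82, 14.82 and 14.71 in control mice 1, 2 and 3 and of 14.26, 14.13 and 14.08 in TCE mice 1, 2 and 3. All 3 TCE mice were therefore below all control mice. The change was -0.62 (SE 0.11, 95% interval -0.89 to -0.35), a 1.54-fold lower signal with an adjusted p of 0.0525, the lowest of the members and just above the threshold. With normexp background correction the adjusted p of Otc was 0.0289 at a change of -0.61, and with an intensity trend in the variance model it was 0.0194. It was 0.0535 with 75th percentile scaling and 0.100 without the filter on dim probes. In the fits that left out 1 mouse it ran from 0.111 to 0.206.

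Otc was measured by a second probe, printed here because the groups were less clearly apart on it. Its 60 bases span 23648 bases of the genome (mm9 chrX:9853843-9877490, with Otc on the plus strand), so it crosses at least 1 intron and reads spliced RNA:
Otc junction probe: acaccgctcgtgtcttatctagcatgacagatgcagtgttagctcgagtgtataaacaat
This probe gave 13.20, 13.07 and 12.87 in the control mice and 13.01, 12.43 and 12.79 in the TCE mice, so the groups overlapped. Its change was -0.30 (SE 0.18, adjusted p = 0.449), of the same sign as the change of the first probe and smaller. The first probe lies at mm9 chrX:9897267-9897326. With the mean over both probes the change of Otc was -0.46 (adjusted p = 0.123).

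The steps on either side of Otc gave smaller values than its brighter probe, though Cps1 differed by more than the second Otc probe. Carbamoyl phosphate synthetase (Cps1), which captures ammonia and is the entry enzyme of the cycle, had signals of 14.47, 14.17 and 14.07 in control mice and 14.005, 13.42 and 14.02 in TCE mice. The groups did not overlap, although the highest TCE mouse and the lowest control mouse were close. Its change was -0.42 (95% interval -0.92 to 0.08, adjusted p = 0.352), and without TCE mouse 2 it was -0.22. N-acetylglutamate synthase (Nags), which makes the activator that Cps1 needs, was at 12.01, 11.87 and 11.70 in control mice and 11.62, 11.58 and 11.53 in TCE mice. Those groups did not overlap either, with a change of -0.28 (SE 0.12, adjusted p = 0.296). The ornithine carrier Slc25a15, which brings ornithine to Otc in the mitochondrion, differed by -0.13 (95% interval -0.58 to 0.32), with overlapping groups.

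For the cytosolic enzymes the groups overlapped throughout. Argininosuccinate synthase (Ass1), which adds the second nitrogen from aspartate, was at 17.19, 17.28 and 17.31 in control mice and 17.48, 16.95 and 17.45 in TCE mice. The TCE mice lay on both sides of the control mice. The difference was 0.03 (95% interval -0.37 to 0.44, adjusted p = 0.943), and its sign differed between processing settings and between its probes, of which the dimmer one gave -0.07. Argininosuccinate lyase (Asl), which releases arginine, differed by -0.11 (95% interval -0.55 to 0.33). Arginase (Arg1), which splits off urea and returns ornithine, was at 15.89, 15.42 and 15.50 in control mice and 15.86, 15.33 and 15.56 in TCE mice. That is a difference of -0.02 (95% interval -0.49 to 0.45, adjusted p = 0.972). Citrin (Slc25a13), the carrier that supplies the cytosol with aspartate for Ass1, was the 1 urea cycle gene with every TCE mouse above every control mouse: 13.41, 13.45 and 13.46 in control mice against 13.65, 13.74 and 13.52 in TCE mice, a difference of 0.20 (SE 0.11, adjusted p = 0.417).

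Nags, Cps1 and the brighter probe of Otc, all mitochondrial enzymes, thus had non-overlapping groups with TCE mice lower, as did 10.8% of all tested genes. On the second Otc probe the groups overlapped, as they did for Ass1, Asl and Arg1. A difference between mitochondrial and cytosolic enzymes was not tested. For 5 of the 8 genes TCE mouse 2 had the lowest signal of the TCE mice. Over all 52 members TCE mouse 2 was the lowest TCE mouse in 29, TCE mouse 1 in 11 and TCE mouse 3 in 12. The same count was not made over all tested genes. As a mean over genes relative to the control mean, the members were at -0.07, -0.22 and -0.06 in TCE mice 1, 2 and 3. All tested genes were at 0.03, 0.05 and 0.02 in the same mice. Without TCE mouse 2 the median change of the urea cycle genes was 0.03 in place of -0.12, so the sign of that median rests on this mouse, and Otc was -0.61 without it.

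**Figure D3:**
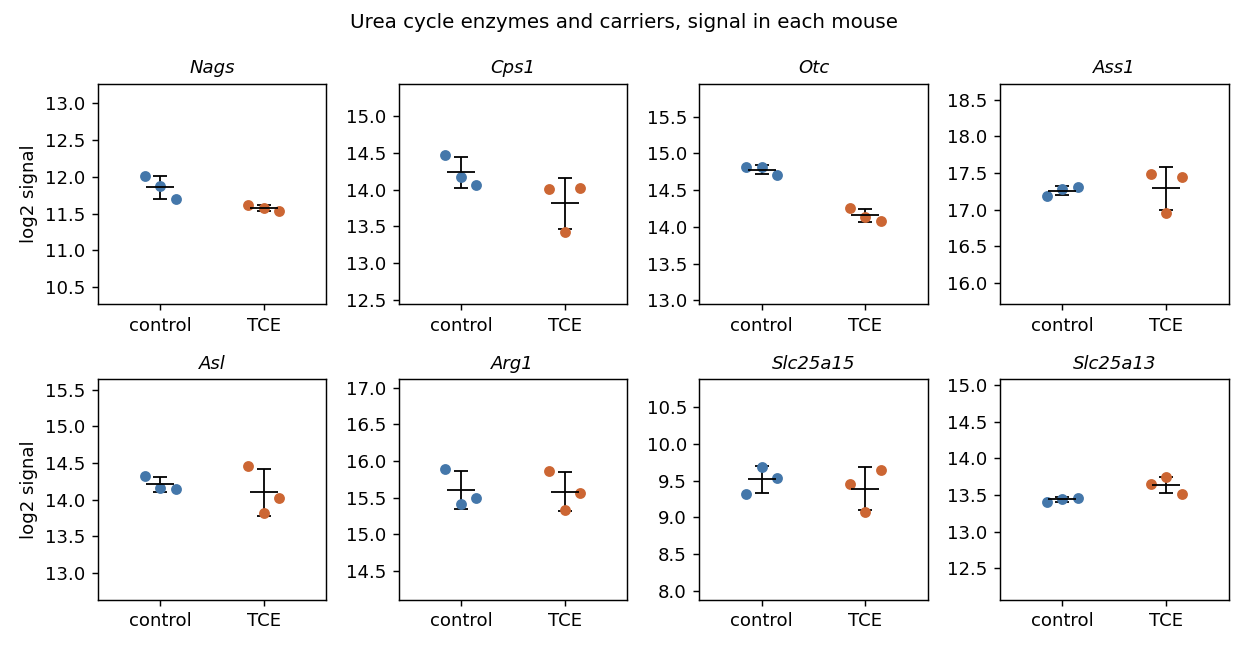
Log2 signal of the 8 tested urea cycle genes in each mouse. Points are mice, the horizontal line is the mean and the bars are 1 SD (n = 3), and each panel spans 3 log2 units around its own values. The TCE mice lie apart from the control mice in Nags, Cps1 and Otc, where they are lower, and in Slc25a13, where they are higher.

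The first 250 bases upstream of the annotated start of Otc are shown, from RefSeq on GRCm38.p6 (chrX:10252055-10252304, plus strand), since this gene had the lowest adjusted p of the members. Of the 8 motifs listed at the end 0 were found in it, so it is printed without capitals:
Otc promoter: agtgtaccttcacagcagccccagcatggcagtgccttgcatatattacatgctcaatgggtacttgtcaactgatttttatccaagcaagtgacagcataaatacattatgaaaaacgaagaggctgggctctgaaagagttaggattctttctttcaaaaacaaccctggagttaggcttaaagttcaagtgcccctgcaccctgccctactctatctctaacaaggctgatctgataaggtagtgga

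Nitrogen reaches the urea cycle through glutamate, glutamine, aspartate and alanine. The 6 genes of this group had a median change of -0.06, 4 lower and 2 higher. Glutamate dehydrogenase (Glud1), which frees ammonia from glutamate, was at 15.98, 16.02 and 15.97 in control mice and 15.95, 16.11 and 15.77 in TCE mice, and the difference was -0.05 (95% interval -0.35 to 0.25, adjusted p = 0.872). A second probe gave -0.06. Liver glutaminase (Gls2), which frees ammonia from glutamine next to Cps1, was at 14.995, 14.76 and 14.82 in control mice and 14.39, 14.49 and 14.70 in TCE mice. The groups did not overlap and the difference was -0.33 (SE 0.14, adjusted p = 0.276).

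The aminotransferases come as pairs of a cytosolic and a mitochondrial enzyme. Mitochondrial aspartate aminotransferase (Got2) was at 14.91, 14.85 and 14.78 in control mice and 15.40, 15.03 and 15.13 in TCE mice, every TCE mouse being above every control mouse. The difference was 0.34 (95% interval 0.01 to 0.67, adjusted p = 0.266), but 0.11 with normexp background correction. Its cytosolic partner Got1 varied far more within each group: 15.15, 14.69 and 14.16 in control mice and 14.65, 14.13 and 15.55 in TCE mice. The difference of 0.11 had an interval from -0.88 to 1.103, so a 2-fold higher signal is within the interval for this gene. Of the alanine aminotransferases, Gpt differed by -0.19 (95% interval -0.47 to 0.09) and mitochondrial Gpt2 by -0.07 (95% interval -0.40 to 0.25), both with overlapping groups.

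Tyrosine breakdown was the group with the highest median among those with more than 1 gene, at 0.13. Tyrosine aminotransferase (Tat), the entry enzyme and a classic target of glucocorticoids and glucagon, was at 15.17, 15.17 and 15.01 in control mice and 15.68, 15.29 and 15.46 in TCE mice. The groups did not overlap, with a difference of 0.36 (SE 0.14, adjusted p = 0.255). The enzyme that follows, 4-hydroxyphenylpyruvate dioxygenase (Hpd), was at 16.04, 15.98 and 15.92 against 16.03, 15.89 and 15.99, a difference of -0.01 (95% interval -0.27 to 0.25). Homogentisate dioxygenase (Hgd), which opens the aromatic ring, was higher in every TCE mouse, at 13.90, 13.77 and 13.85 against 13.65, 13.61 and 13.46 (difference 0.27, adjusted p = 0.287). Fumarylacetoacetase (Fah), the last step, was lower in every TCE mouse, by -0.15 (adjusted p = 0.539).

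The kynurenine pathway of tryptophan had a median change of 0.09. Tryptophan dioxygenase (Tdo2), its entry enzyme, was at 14.09, 14.12 and 13.48 in control mice and 13.98, 13.62 and 13.63 in TCE mice, with overlapping groups and a difference of -0.16 (95% interval -0.67 to 0.36, adjusted p = 0.742). Kynurenine formamidase (Afmid), the step after Tdo2, had the largest difference of the group: 11.39, 11.09 and 11.53 in control mice against 11.02, 10.90 and 11.03 in TCE mice, or -0.35 (SE 0.15, adjusted p = 0.284). The probes of kynureninase (Kynu) disagreed in sign. The brighter probe was higher in every TCE mouse (11.20, 11.02 and 11.26 against 10.95, 10.83 and 10.69, difference 0.34, adjusted p = 0.249), whereas the other probe differed by -0.31 (adjusted p = 0.785), with 9.25 in TCE mouse 2 and 11.01 and 11.06 in the other TCE mice. Kynurenine monooxygenase (Kmo) differed by 0.11 on both of its probes. Haao and Acmsd, which handle the intermediates on the way to quinolinate and to full oxidation, differed by 0.06 (95% interval -0.20 to 0.32) and 0.11 (95% interval -0.69 to 0.92).

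Histidine breakdown held the largest difference of all members. Histidine ammonia-lyase (Hal), the entry enzyme, which removes ammonia from histidine, was at 15.01, 14.995 and 14.71 in control mice and at 13.68, 13.13 and 14.31 in TCE mice. Every TCE mouse was below every control mouse, but the TCE mice differed among themselves by more than 1 log2 unit. The change was -1.20 (SE 0.30, 95% interval -1.92 to -0.48), a 2.30-fold lower signal with an adjusted p of 0.114, and without TCE mouse 2 it was -0.91. A second probe for Hal gave 11.19, 10.97 and 10.21 in control mice and 9.70, 9.59 and 9.42 in TCE mice, a change of -1.22 (SE 0.26, adjusted p = 0.0864). Both probes thus gave nearly the same size, and neither passed alone. Their mean was past the threshold, at -1.21 with an adjusted p of 0.0373. That fit ran over 13284 genes and not over probes, and 3.5% of all tested genes passed in it, against 2.39% as reported. Without 1 mouse the adjusted p of the brighter probe ran from 0.0564 to 0.312.

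The later steps of the pathway differed less. Urocanase (Uroc1), directly after Hal, was at 14.24, 14.16 and 14.46 in control mice and 14.31, 14.39 and 14.09 in TCE mice, a difference of -0.02 (95% interval -0.36 to 0.32, adjusted p = 0.959). Imidazolonepropionase (Amdhd1) was lower in every TCE mouse, at 12.19, 12.34 and 12.29 against 12.74, 12.80 and 12.49, by -0.40 (SE 0.13, adjusted p = 0.180). Hal and Amdhd1 are neighbours on chromosome 10, where their probes start at 92979135 and 92986454 on mm9. The last enzyme, Ftcd, which passes the remaining carbon to folate, differed by 0.02 (95% interval -0.24 to 0.29).

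The window upstream of Hal is shown because this gene had the largest difference (RefSeq, GRCm38.p6 chr10:93488518-93488767, plus strand). Capitals mark the 1 match found in it, to the C/EBP core TTGCNNAA, which lies 150 to 143 bases before the start. C/EBP proteins are liver transcription factors:
Hal promoter: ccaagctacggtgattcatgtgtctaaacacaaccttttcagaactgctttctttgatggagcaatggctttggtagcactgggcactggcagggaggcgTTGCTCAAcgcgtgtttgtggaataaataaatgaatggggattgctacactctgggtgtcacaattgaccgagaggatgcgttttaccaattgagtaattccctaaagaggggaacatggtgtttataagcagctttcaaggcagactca

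The serine, glycine and threonine group had a median change of -0.18, with 6 of 8 tested genes lower. Dimethylglycine dehydrogenase (Dmgdh), a mitochondrial enzyme that takes a methyl group off a product of choline, was among the larger differences with a small spread: 14.83, 14.86 and 14.96 in control mice and 14.39, 14.31 and 14.38 in TCE mice. The groups were far apart relative to their spread, and the change was -0.52 (SE 0.10, 95% interval -0.78 to -0.27, adjusted p = 0.0702). Sarcosine dehydrogenase (Sardh), the next enzyme of the same route, was also lower in every TCE mouse, at 14.42, 14.48 and 14.38 against 14.69, 14.53 and 14.70, by -0.21 (adjusted p = 0.376). In the glycine cleavage system, Gldc differed by -0.22 (95% interval -0.55 to 0.10) and Amt by -0.39 (95% interval -0.96 to 0.19), with overlapping groups for both.

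Serine dehydratase (Sds), which turns serine into pyruvate for glucose production, varied among control mice, with 13.97, 14.20 and 13.30 against 14.03, 13.96 and 14.22 in TCE mice. The difference was 0.25 (95% interval -0.33 to 0.84, adjusted p = 0.634). Its relative Sdsl differed by 0.10 (95% interval -0.16 to 0.36). Alanine-glyoxylate aminotransferase (Agxt), which clears glyoxylate, differed by -0.14 (95% interval -0.47 to 0.19), and Gcat, of threonine breakdown, by -0.06 (95% interval -0.40 to 0.28).

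In proline breakdown the paralogs differed in sign. Proline dehydrogenase (Prodh), the first step, was at 14.00, 14.05 and 14.67 in control mice and 13.71, 12.86 and 13.94 in TCE mice. The groups did not overlap, and the change was -0.74 with a wide interval (-1.52 to 0.04, adjusted p = 0.303). Without TCE mouse 2 it was -0.42. Prodh2, which acts on hydroxyproline, was at 14.11, 14.00 and 14.05 against 14.30, 14.27 and 14.07, a difference of 0.16 (95% interval -0.12 to 0.44). Aldh4a1, the dehydrogenase that both routes share, differed by 0.06 (95% interval -0.21 to 0.33). The difference between the paralogs was not tested.

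Of the cysteine genes, cysteine dioxygenase (Cdo1), which commits cysteine to sulfate and taurine, was lower in every TCE mouse, at 14.65, 14.81 and 14.71 against 15.41, 15.11 and 15.01. The change was -0.45 (SE 0.14, adjusted p = 0.179). Cysteine sulfinate decarboxylase (Csad), the step toward taurine, had nearly the same mean change of -0.46 but the mice overlapped widely, with 13.68, 14.64 and 13.14 in TCE mice against 14.28, 13.99 and 14.56 in control mice (95% interval -1.38 to 0.47). Its change was -0.87 without TCE mouse 2 and -0.12 without TCE mouse 3. Cystathionine gamma-lyase (Cth), which makes cysteine, differed by -0.04 (95% interval -0.66 to 0.58) from 2 control mice and 3 TCE mice, since its spot in control mouse 3 was left out as an outlier. A second probe of Cth gave 0.05. Aass, the first enzyme of lysine breakdown, differed by 0.19 (95% interval -0.34 to 0.72).

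In the branched-chain group the 9 genes had a median change of -0.14, and the differences ran both ways along the pathway. The mitochondrial aminotransferase Bcat2, which starts the breakdown of leucine, isoleucine and valine, was at 9.76, 9.60 and 9.51 in control mice and 8.54, 8.95 and 8.95 in TCE mice. Every TCE mouse was lower, and the change was -0.81 (SE 0.16, 95% interval -1.19 to -0.43), a 1.76-fold lower signal with an adjusted p of 0.0655. Both subunits of the E1 part of the dehydrogenase complex, the committed step, were higher in every TCE mouse, as were 17.1% of all tested genes. Bckdhb was at 14.42, 14.37 and 14.30 in control mice and 14.91, 14.64 and 14.81 in TCE mice, a difference of 0.42 (SE 0.12, adjusted p = 0.146), the largest positive difference among the members. For Bckdha it was 0.32 (adjusted p = 0.333), and its groups were close. Its signal was 14.85, 14.58 and 14.95 in control mice and 15.28, 15.07 and 14.98 in TCE mice.

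Isovaleryl-CoA dehydrogenase (Ivd), the following step for leucine, was at 13.39, 13.52 and 13.55 in control mice and 12.95, 12.97 and 12.93 in TCE mice. The TCE mice were nearly equal and all lay below the control mice, and the change was -0.53 (SE 0.11, 95% interval -0.79 to -0.28, adjusted p = 0.0693). Methylmalonyl-CoA mutase (Mut), which ends the propionate route, was lower in every TCE mouse by -0.23 (adjusted p = 0.336). Propionyl-CoA carboxylase, which feeds it, differed by 0.07 in its alpha subunit Pcca (95% interval -0.21 to 0.35) and by -0.16 in its beta subunit Pccb (95% interval -0.54 to 0.23). Mccc1, of leucine, differed by -0.14 (95% interval -0.51 to 0.23), while a dimmer probe for it was lower in every TCE mouse by -0.36 (adjusted p = 0.255). Hibadh, of valine, differed by -0.05 (95% interval -0.30 to 0.21).

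**Figure D4:**
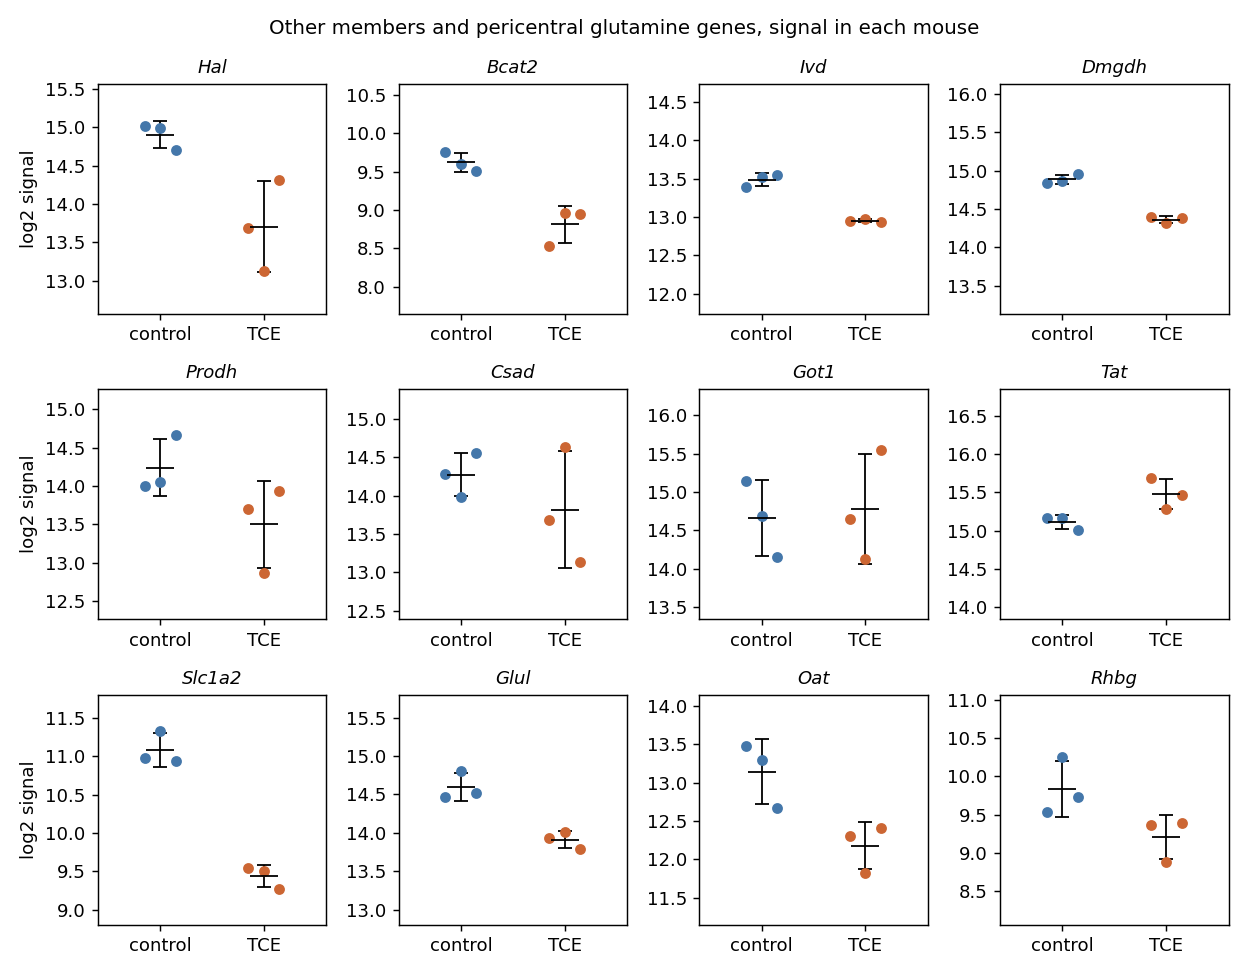
Log2 signal in each mouse of 8 genes outside the urea cycle and, in the last row, of 4 genes of glutamate uptake, glutamine synthesis, ornithine and ammonia handling. Points are mice, horizontal lines are means and bars 1 SD (n = 3), and each panel spans 3 log2 units. Hal, Bcat2, Ivd and Dmgdh are lower in all TCE mice, Csad and Got1 overlap, and Slc1a2 has the widest gap between the groups.

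Set side by side, the median change of the urea cycle genes (-0.12) lay among those of the amino acid groups. Lower medians were those of cysteine (-0.45), histidine (-0.21), serine, glycine and threonine (-0.18) and the branched-chain group (-0.14). Higher ones were those of glutamine, glutamate, aspartate and alanine (-0.06), proline (0.06), tryptophan (0.09), tyrosine (0.13) and the single lysine gene (0.19). The 44 tested members outside the urea cycle had a median of -0.05. As a mean over the genes of a group in each mouse, the histidine group was -0.41, -0.51 and -0.28 in TCE mice 1, 2 and 3 relative to the control mean, while the control mice lay between -0.03 and 0.03. Hal weighs most in this mean, with -1.20, against -0.40 for Amdhd1, -0.02 for Uroc1 and 0.02 for Ftcd. For the urea cycle the TCE mice were at -0.01, -0.36 and -0.14 and the control mice between -0.06 and 0.07, so that 1 TCE mouse lay among the control mice. The branched-chain group, with differences of both signs, was at -0.09, -0.14 and -0.14 in the TCE mice and between -0.02 and 0.03 in the control mice. The cysteine group was at -0.31, -0.16 and -0.47 in the TCE mice and between -0.14 and 0.10 in the control mice. No test was run on these group values.

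**Figure D5:**
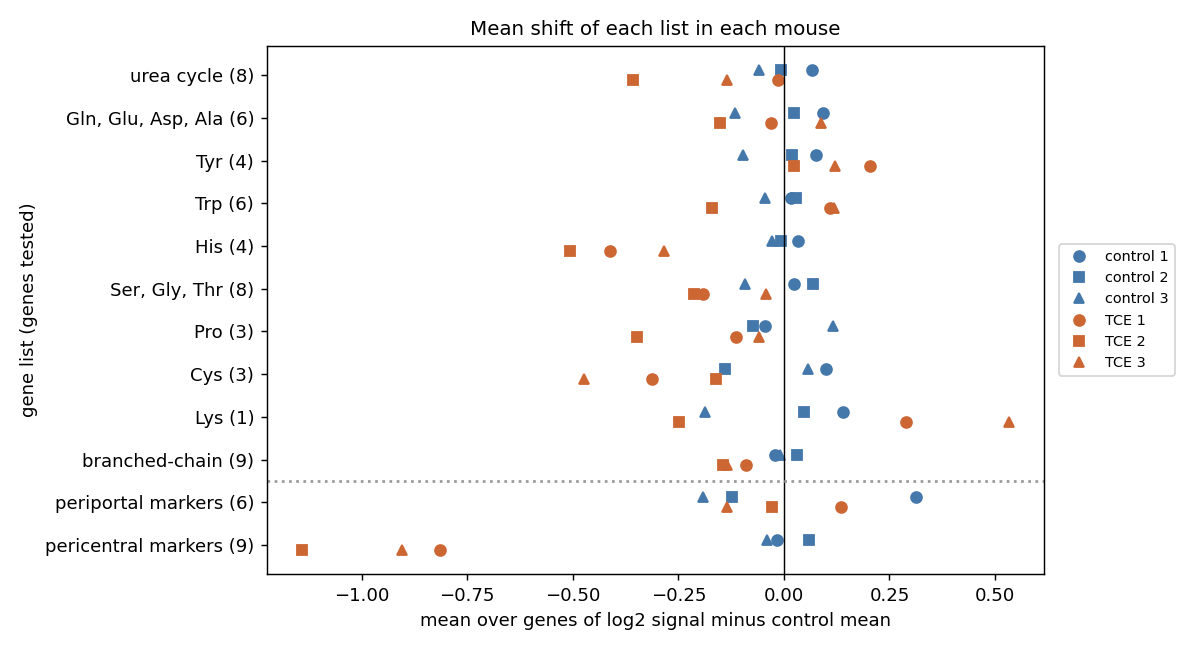
Mean over the tested genes of each group of the log2 signal minus the control mean, 1 symbol per mouse (blue control, orange TCE), with the number of tested genes in brackets. Cth is missing in control mouse 3. The histidine, cysteine and branched-chain groups and the pericentral markers are lower in all TCE mice than in all control mice, and the urea cycle and periportal markers have TCE mice among the control mice.

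Other enzymes of the same pathways, which were not chosen as members, numbered 71, and 64 of them were tested. At an adjusted p of 0.05 or less 0 were past the threshold by limma, against 2.39% of all tested genes. At an unadjusted p of 0.05 or less there were 12 (18.8%, against 19.1% of all tested genes), 8 higher and 4 lower in TCE mice. The groups did not overlap for 23 (35.9%, against 27.9% of all tested genes). Their median change was -0.01. Of 11 amino acid transporters 1 passed, against 2.39% of all tested genes. This was Slc1a2, a glutamate carrier of the hepatocytes next to the central vein. Its signal was 10.98, 11.34 and 10.94 in control mice and 9.54, 9.50 and 9.27 in TCE mice, and it fell by 1.65 on the log2 scale (SE 0.15, 95% interval -2.02 to -1.27, adjusted p = 0.00747). In each fit that left out 1 mouse it stayed past the threshold, with adjusted p values between 0.0300 and 0.0348.

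Genes that work with Slc1a2 in the same cells were named after their values were seen. Glutamine synthetase (Glul), which binds the ammonia that escapes the urea cycle, was at 14.46, 14.81 and 14.52 in control mice and 13.93, 14.01 and 13.79 in TCE mice, a change of -0.68 (SE 0.14, adjusted p = 0.0740). Ornithine aminotransferase (Oat), which breaks down ornithine, was at 13.47, 13.29 and 12.66 against 12.30, 11.82 and 12.40, or -0.96 (SE 0.26, adjusted p = 0.133). The ammonia channel Rhbg was at 9.54, 10.25 and 9.73 against 9.36, 8.88 and 9.39, or -0.62 (adjusted p = 0.242). In all 3 genes every TCE mouse was below every control mouse, as in 10.8% of all tested genes. They belong to a list of ammonia, glutamine and ornithine genes, of which 9 were tested, 4 lower and 5 higher, with a median change of 0.02. In that list Slc25a22 was higher in every TCE mouse (difference 0.34, adjusted p = 0.20).

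Of 10 pericentral markers, which include these 4 genes, 9 were tested, and all 9 had a negative change, with a median of -0.90. The groups did not overlap for 7 of them, all with TCE mice lower, against 10.8% of all tested genes. Past the threshold and lower were 3, against 0.587% of all tested genes: Slc1a2, the cytochrome Cyp1a2 (-0.90, adjusted p = 0.0355) and the Wnt-enhancing receptor Lgr5 (-1.11, adjusted p = 0.0351). Cyp1a2 lost the threshold without any 1 of the 6 mice (adjusted p up to 0.152) and Lgr5 without any mouse but control mouse 1 (adjusted p up to 0.148). Both lost it without the filter on dim probes (adjusted p = 0.108 and 0.123), and Lgr5 was -0.70 with normexp background correction (adjusted p = 0.0711). Of 6 periportal markers 0 passed by limma (against 2.39% of all tested genes), and 1 had an unadjusted p of 0.05 or less (against 19.1%). Their median was -0.05. The summed pericentral signal lay between 18.30 and 18.39 in control mice and between 18.07 and 18.22 in TCE mice. The summed periportal signal lay between 17.94 and 18.26 in control mice and between 17.94 and 18.17 in TCE mice. Bright genes weigh most in such sums. The brightest were Cyp2e1 (18.09 as the control mean and 17.99 as the TCE mean) for the pericentral sum and Cyp2f2 (17.25 and 17.05) for the periportal sum. The part of these markers in the values of the members was not tested.

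Regulators of these genes numbered 10, and 0 were past the threshold by limma, against 2.39% of all tested genes. At an unadjusted p of 0.05 or less there were 3, against 19.1% of all tested genes. Those 3 were named after their values were seen. Cebpb was at 12.96, 13.18 and 13.85 in control mice and 14.49, 14.50 and 13.97 in TCE mice (difference 0.98, adjusted p = 0.140). Foxo1, a factor of the fasted state, differed by 0.45 (adjusted p = 0.139), and Cebpa, the C/EBP factor of the resting liver, by -0.42 (adjusted p = 0.215).

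Promoter windows were given for 41 of the 54 members, and 8 motifs were looked for on both strands. A window holds 250 bases before the start and runs on past it (for Otc chrX:10252055-10252354). The counts cover the whole window, so a match may lie past the start. A member was counted if any of its windows held the motif, and 5 members had more than 1 window. The share of all windows was counted per window, so the 2 shares are not fully alike. The cAMP response element TGACGTCA was in 0 of the 41, and in 1.79% of all windows. The shorter core TGACG, which the full element contains, was in 8 members (19.5%), against 20.8% of all windows. Among the 8 were Nags and Slc25a13 of the urea cycle. Cps1, Asl, Arg1 and Arg2 of that cycle had no window, so they were not searched for any motif. The C/EBP core TTGCNNAA was in 4 members, Hgd, Hal, Prodh2 and Aass (9.76%, against 10.8%), and its palindrome TTGCGCAA in 0 (against 0.183%). The HNF1 core GTTAAT was in 5 members, Got2, Haao, Ftcd, Prodh2 and Bckdhb (12.2%, against 7.1%). An HNF4 site CAAAGTCCA (0.475% of all windows), the DR1 repeat of nuclear receptors (0.0396%) and the palindromic glucocorticoid response element (0.00913%) were in 0 members. A match is a stretch of letters in this window and not a bound site.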

How the data were processed

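Liver RNA of 6 mice was measured on 1-colour arrays. Spots were read with Agilent Feature Extraction 10.7.1.1 (submitters' processing notes), and the deposited intensity is already background-subtracted and detrended. A further table by the authors gives log2 group means and probe annotation on mm9. Of its columns 6 hold flags for single samples and were not used. The methods name quantile normalization and a 2-fold change with a t-test.

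Here control spots were left out, 123 to 189 outlier spots per array were set to missing, spots of a probe were averaged, and log2 intensities were quantile normalized without a pseudocount. Of 55681 probes, 22731 were well above background throughout the control or the TCE group, and these were tested. The fit used R 4.3.3, limma 3.58.1 and version 1.17.8 of data.table, with its lmFit and eBayes functions and group as the single factor. P values are two-sided and were adjusted by Benjamini-Hochberg over these probes, or over 13284 genes where the probes of a gene were averaged. Adjusted p values of 0.05 or less passed. Intervals are 95% intervals from the same fit, and 3 mice per group limit the precision. The brightest tested probe stood for a gene, and 8 members had more than 1 tested probe. The procedure was tested on simulated data.

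The rule for named genes took, in each group, the members with the largest and smallest change, Cps1, Otc, Ass1, Arg1, Tat, Hpd, Tdo2 and Hal, the paralog pairs, and other pathway genes past the threshold. Members named beside these were chosen after their values were seen. The members and lists were chosen with earlier results of these data known. Replicate numbers did not pair the mice (correlations of same-numbered deviations 0.09, 0.01 and -0.09). Other processing settings are in the closing section. The methods' other doses and assays were not analysed here.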

Additional observations from a re-analysis of the deposited data

How the results depend on the processing

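The count of members past an adjusted p of 0.05 was 0 as reported and 0 with 75th percentile scaling, without a filter on dim probes, with only probes above background on all 6 arrays, with outlier spots kept, with slide as a block, with the methods' t-test after adjustment, and without each mouse in turn (lowest and highest 0). Fewer genes passed under most of these settings: the share of all tested genes was 2.45% with 75th percentile scaling, 0.297% without the filter, 2.08% with all 6 arrays, 2.36% with outlier spots kept, 0.964% with the slide block, 0.279% with the adjusted t-test and 0.682% to 1.27% without 1 mouse. The count was 3 with normexp background correction (Otc, Bcat2 and Ivd), 4 with an intensity trend in the variance model (Otc, Dmgdh, Bcat2 and Ivd) and 4 with the mean over a gene's probes (Hal, Dmgdh, Bcat2 and Ivd), all lower in TCE mice. With probe means, the fit and the adjustment ran over 13284 genes and not over probes. Dmgdh, Bcat2 and Ivd were each measured by a single probe, so averaging left their signals unchanged. The methods' t-test without adjustment gave 17, of which 11 were lower. A 2-fold change as well held for 1 member, Hal, with the mean over probes and with the unadjusted t-test, where 2.09% and 3.09% of all tested genes met it. The share of all tested genes past the threshold at any size was 2.39% as reported, 2.79% with normexp, 3.15% with the trend, 3.5% with the mean over probes and 19% with the unadjusted t-test. The cause of these differences was not tested.

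The median of the urea cycle genes ran from -0.22 to 0.032 over the fits without 1 mouse, lowest without TCE mouse 1 and highest without TCE mouse 2. Over the same fits the cysteine median ran from -0.49 to -0.15 (highest without TCE mouse 3), the tryptophan median from -0.02 to 0.10 (lowest without TCE mouse 3) the lysine value from 0.021 to 0.41 (without TCE mice 3 and 2), the glutamine, glutamate, aspartate and alanine median from -0.14 to -0.015 (without control mice 3 and 2), the proline median from 0.020 to 0.11 (without control mouse 3 and TCE mouse 1) and the branched-chain median from -0.18 to -0.05 (lowest without TCE mouse 1, highest without TCE mouse 3). The median of all members ran from -0.14 (without TCE mouse 1) to 0.00064 (without TCE mouse 2).

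Signs turned for 10 of the named genes, whose reported differences lay between -0.07 and 0.25. Ass1 was -0.12 with 75th percentile scaling, -0.020 with normexp, -0.017 with the mean over probes and -0.0032 with slide as a block. Arg1 was 0.032 with normexp and 0.13 with slide as a block. Hpd was 0.0073 and 0.019 under the same settings, and Cth was 0.088 and 0.019, with 0.054 for the mean over probes. Without 1 mouse the values ranged from -0.060 to 0.20 for Ass1, -0.16 to 0.13 for Arg1, -0.042 to 0.031 for Hpd, -0.15 to 0.18 for Cth, -0.13 to 0.037 for Glud1, -0.27 to 0.44 for Got1, -0.14 to 0.0077 for Gpt2, -0.084 to 0.066 for Uroc1, -0.0094 to 0.44 for Sds and -0.15 to 0.028 for Gcat.

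With the replicate number as a block, which does not pair these mice, 0 members were past the threshold and the urea cycle median was -0.12, while 45 genes in all were past it in place of 317. Slc1a2 then had an adjusted p of 0.0640, Cyp1a2 of 0.151 and Lgr5 of 0.119. As control mouse 1 was alone on its slide, the slide block takes that mouse out of the comparison.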
